A study of Homo sapiens with 6 samples.

Results

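N4-acetylcytidine (ac4C) peaks that lie in the 3′ untranslated region (3′ UTR) of protein-coding genes made up 7399 of the 15622 peaks that acRIP-seq gave in colorectal cancer (CRC) cells, or 47.4% (95% Wilson interval 46.6 to 48.1). They were chosen from the pooled peak list by its own position annotation, three_prime_utr, and by a host gene of the protein_coding class, and they lay on 4924 of the 8370 host genes in that list. A further 38 peaks with the same annotation had hosts of other classes and were left out. For comparison, the same list held 4850 peaks in coding sequence (CDS) and 227 in 5′ UTRs of protein-coding genes. In acRIP-seq, fragmented RNA is pulled down with an antibody against ac4C and sequenced beside RNA that was not pulled down (Input), and a peak is a stretch with more acRIP than Input reads. The fold of a peak is this excess as the authors' caller gave it.

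The study sequenced 6 libraries, namely Input, NAT10 RIP (RNA bound to NAT10, pulled down with an antibody against the protein) and acRIP from SW480 and from DLD-1. Both are established epithelial lines from human colorectal tumours, grown untreated and labelled as wild type, and each line is a single culture model without the other cells of a tumour. There was 1 library per group and no replicate, so all values below describe libraries and no test between lines was possible. Shares are given with 95% Wilson intervals, which cover counting error only. The pooled list was taken as called on both lines together, and a list of each line alone was deposited as well.

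Acetylation of the N4 atom of cytidine is catalysed by NAT10, the only known human enzyme for it, and ac4C was first known from tRNA and rRNA. In mRNA the mark has been linked to transcript stability and to translation. A 3′ UTR follows the stop codon and carries sites for microRNAs, RNA-binding proteins and the polyadenylation machinery, so that it sets much of the lifetime and location of an mRNA. The pattern searched by the authors, called SS_Number in the lists, is a cytidine followed by any 2 bases, 4 times over, CNNCNNCNNCNN on the RNA strand.

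Each Input library correlated more with the NAT10 RIP library of the other label than with that of its own label. FPKM, the unit of the expression tables, is a fragment count scaled to transcript length and sequencing depth. On the log2(FPKM + 1) scale, Pearson's r across 16278 protein-coding genes between RIP labelled SW480 and Input was 0.872 for the Input of its own label and 0.945 for the other one. RIP labelled DLD-1 had 0.857 with the Input of its own label and 0.951 with the other one. Genes of a library are not independent, so these values are a description. Genes of at least 5 FPKM in the Input labelled SW480 and under 0.2 in the other (28 genes, same limits in both expression tables) had a peak in the SW480 list in 7 cases and in the DLD-1 list in 12. For the 101 genes with the reverse pattern these counts were 27 and 19. Counted as 3′ UTR peaks, the SW480 and DLD-1 lists held 2 and 9 on the 28 genes and 29 and 29 on the 101. Over all genes these lists held 9536 and 13964 peaks, of which 5022 and 5763 were 3′ UTR peaks of protein-coding hosts. The counts were not scaled to these totals. For the acRIP libraries only such peak counts were compared here. The labels were kept as given, and a value is named by the label of its library. The epithelial markers EPCAM, CDH1, KRT8 and KRT18 were abundant in every library of the expression tables, with a summed level of the 10 epithelial markers between 791 and 2878 FPKM. Of these 10, 9 were higher in the Input labelled SW480 than in the other one in both tables, from KRT20 (29.2 against 0.0426 FPKM) to CDX1 (0.623 against 0), and LGALS4 was lower (0.936 against 4.78). Of the 10 epithelial markers, only CDH1 hosted 3′ UTR peaks of the pooled list, 2 in number, so lacking one does not mark a cell type. None of 9 markers of fibroblasts, leukocytes and endothelium hosted a 3′ UTR peak of that list. Their summed levels were 0.0258 to 0.381 FPKM for fibroblasts, 0 to 0.0632 for leukocytes and 0 to 0.808 for endothelium. In the SW480 list, 6 peaks lay on COL1A1 and 1 each on COL1A2 and DCN, and in the DLD-1 list none. Steps in the low FPKM values gave depths relative to the RIP library labelled SW480. These were 0.493 and 0.456 for the Inputs labelled SW480 and DLD-1 and 0.850 for the RIP library labelled DLD-1. In this order, 161 of 3337, 165 of 3693 and 296 of 4218 low genes stood at the ratio, so these depths are rough. Depth of the acRIP libraries is unknown.

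KIF23, a kinesin motor of the central spindle and the main gene of the study, carried 1 peak in its 3′ UTR at chr15:69448128-69448397 on the plus strand (GRCh38). The peak was 270 bases long, in 1 block, and ended 30 bases before the gene end in RefSeq (GRCh38.p14). Its fold was 112 in the pooled list, 67.7 in the SW480 list and 57.4 in the DLD-1 list, so that both lines listed it. KIF23 was at 34.3 FPKM in Input labelled SW480 and 19.6 in Input labelled DLD-1 (RIP table), and at 18.8 and 31.2 FPKM in NAT10 RIP of these labels. The peak held 1 listed site, at chr15:69448194-69448205. The study designed RNA probes of 271 bases for this region, and the site spans bases 67 to 78 of the probe and of the peak alike. The site is shown with 8 bases on each side because it is the one that the study mutated, with the pattern in capitals in the wild-type probe and the substituted bases in capitals in the mutant probe.
KIF23 wild-type probe: uauugugaCUUCUCCAGCCCuggucuga
KIF23 mutant probe: uauugugaAuuAucAagcccuggucuga
The mutant carries C67A, C70A and C73A, counted from the 5′ end of the probe, and held no match to the pattern in its 271 bases, whereas the wild-type probe held 1. The pattern itself is common. It occurred on the sense strand in 74.9% of 35116 RefSeq windows of 300 bases around gene starts, and on either strand in 90.3%, so a match describes the letters only. These windows are not 3′ UTR sequence, and base composition was not compared. Of the 3′ UTR peaks of 182 to 300 bases, 48.7% held a listed site.

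Further sites could be read where a peak reached into such a window, which was the case for 18 listed sites of 14 peaks, and 17 of the 18 matched the pattern at the listed position. The sites of ID1, an inhibitor of basic helix-loop-helix factors, and of S100A2, a calcium-binding protein with the highest fold of all 3′ UTR peaks, are shown, with the pattern in capitals. The pair was chosen after the values were seen. Both sites lie in a window around a gene start, that of LOC105372588 for ID1 and that of S100A2 itself. The peaks are annotated as 3′ UTR, but the printed bases are not shown to be 3′ UTR sequence.
ID1 at chr20:31605405-31605416, plus strand: gccagtggCAGCACCGCCACcgccgccg
S100A2 at chr1:153563885-153563896, minus strand: acctggcaCCTCTGCAGCCAcagatcca
The ID1 peak was 1145 bases long with a fold of 182, and the S100A2 peak was 769 bases long with a fold of 8050 and 1 site.

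Of the 14 genes that the study followed, 8 had at least 1 peak in the 3′ UTR, with 15 peaks in all and a median fold of 20.8, and 10 of the 15 were found in both per-line lists. All 14 were expressed, which here means 1 FPKM or more in each Input of the RIP table. The 8 hosts are 57.1% of them (32.6 to 78.6) against 42.0% of the 10350 expressed protein-coding genes. Their median Input was 36.7 FPKM, and of all expressed genes of 20 to 50 FPKM 55.4% were hosts, near the share of the 14. Some of the 14, KIF23 included, were candidates that the study picked with these same libraries, so that the count is not independent evidence. NAT10 itself carried 2 peaks. The upstream one (418 bases in 3 blocks, pooled fold 45.9) was found in the DLD-1 list only, at a fold of 113, and the other (299 bases, pooled fold 15.4) was shared, with per-line folds of 17.0 (SW480) and 18.4 (DLD-1). CTNNB1, which encodes β-catenin, the effector of canonical Wnt signalling, had a peak of 270 bases in 2 blocks with folds of 104 pooled, 157 in SW480 and 105 in DLD-1, and a weaker one of 330 bases at 9.96, 7.42 and 27.5. The stronger CTNNB1 peak held no listed site, and its second block lay past the gene end in RefSeq.

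BIRC5, which encodes the inhibitor of apoptosis survivin, had 3 peaks with pooled folds of 33.5, 48.0 and 16.3 from 5′ to 3′ and 7 listed sites in all. The first was 1133 bases long, and the third was found in the SW480 list only. NAP1L4, a histone chaperone, had 2 peaks, both shared, with pooled folds of 40.8 and 13.9. The weaker of these differed most between lines among the shared peaks of the followed genes, at 4.16 in SW480 and 43.3 in DLD-1. The growth regulators CCND1 and MYC, both direct targets of Wnt signalling, were abundant in Input (104 to 165 FPKM) and their peaks were weak. CCND1 had 2 at 7.31 and 7.34 and MYC had 1 at 6.71. MPP6, a scaffold protein at membranes, had 2 peaks, both in the DLD-1 list only, with pooled folds of 21.7 and 20.8. HNRNPH3, POU2F1, UBA1, HNRNPA2B1, BCL2L1 and GSK3B had no peak in the 3′ UTR, although UBA1 and GSK3B had one in the CDS. Peaks at positions other than 3′ UTR and CDS were not looked up for these genes. The study reported ac4C peaks on HNRNPH3, POU2F1, UBA1 and HNRNPA2B1.

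Most 3′ UTR peaks were short and lay in a single exon. The median length was 211 bases, with quartiles of 180 and 357 and a range of 118 to 2156, where the length is the sum of a peak's blocks. Lengths did not spread evenly. In 89.0% of the peaks (88.3 to 89.7) the length was within 1 base of a multiple of 30, and 34.2% were 150, 151, 180 or 181 bases long. This grid belongs to the peak calls, so lengths are resolved to about 1 step. Peaks with more than 1 block, which span a splice junction, were 11.3% (10.6 to 12), against 71.9% (70.6 to 73.1) of CDS peaks, and the largest number of blocks was 12. CDS peaks were as long at the median (210 bases). The list gives a single position per peak, and blocks were not checked against the borders of the 3′ UTR. A peak of several blocks can therefore hold bases of other exons, coding ones included, and these count in its length and sites.

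**Figure D1:**
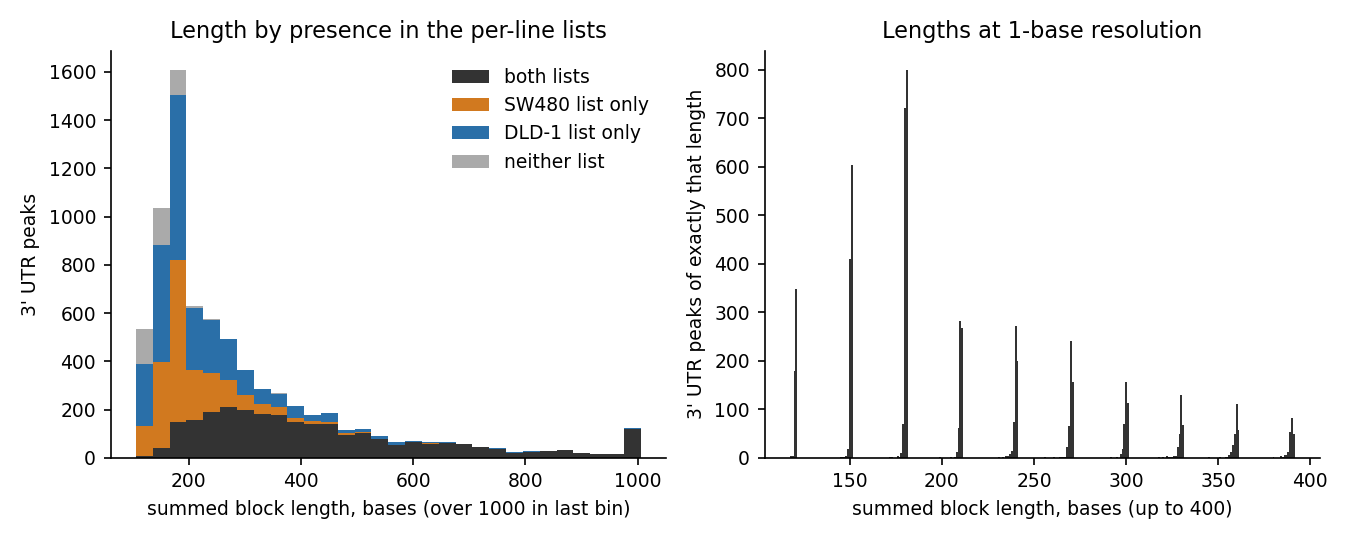
Number of 3′ UTR peaks by summed block length in bases, stacked by presence in the lists of the 2 lines in bins of 30 bases (left) and at each exact length up to 400 bases (right). Lengths stand on a grid of 30 bases, and the peaks found in both lists (dark) make up most of those over 300 bases.

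The longest peak, 2156 bases in 6 blocks over chr1:94529345-94540731, lay on F3, which encodes tissue factor, the starter of blood clotting. Its folds were 327 pooled, 22.9 in SW480 and 1120 in DLD-1. THBS1, the matrix protein thrombospondin 1, followed at 2095 bases with folds of 199 pooled, 35.9 and 497. The host Inputs labelled SW480 and DLD-1 were 31.8 and 7.90 FPKM for F3 and 20.7 and 15.3 for THBS1. The next were CCND2 (cyclin D2, 2037 bases), POLDIP2 (2031 bases in 11 blocks) and CAVIN1, a coat protein of caveolae (2004 bases), with pooled folds of 172, 193 and 116. The CAVIN1 peak was similar in both lines, at 102 in SW480 and 140 in DLD-1, and the POLDIP2 peak was higher in SW480, at 336 against 78.3.

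The fold in 3′ UTRs was above that in CDS and 5′ UTRs. Peaks of protein-coding hosts with other annotations, such as exon, were not compared in fold or sites. Its median was 15.8 (quartiles 9.06 and 34.4), against 10.4 (5.66 and 20.4) for CDS and 10.3 (6.34 and 18) for 5′ UTR peaks, which share the libraries and the caller. The authors' false discovery rate (FDR) was under 0.05 for 95% of the 3′ UTR peaks (94.5 to 95.4), counting 205 whose value was lost to a spreadsheet error at a p-value of 0.

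A listed site was less frequent in 3′ UTR peaks than in CDS or 5′ UTR peaks. At least 1 site was listed for 48.4% of the 3′ UTR peaks (47.3 to 49.6), for 58.6% of CDS peaks (57.2 to 60.0) and for 72.2% of 5′ UTR peaks (66.1 to 77.7). The numbers of 3′ UTR peaks with 0, 1, 2 and 3 sites were 3817, 1651, 837 and 451, and 643 had 4 or more. The density over all bases of the peaks was 3.81 sites per 1000 bases, against 5.37 in CDS and 8.06 in 5′ UTR peaks. At a fixed length of 180 or 181 bases the order was the same, with a site in 36.5% of 1520 3′ UTR peaks (34.1 to 39.0), in 50.8% of 942 CDS peaks (47.7 to 54.0) and in 78.9% of 57 5′ UTR peaks (66.7 to 87.5), and these intervals did not overlap. Base composition of the peaks was not used here, since the pattern needs cytidines and no genome sequence was used.

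Longer 3′ UTR peaks held more sites, also per base. The share with a site went from 27.3% (25.2 to 29.6) at up to 151 bases over 48.7% (46.5 to 50.9) at 182 to 300 bases to 86.9% (83.9 to 89.4) above 600 bases. Over the same classes the density was 2.76, 3.68 and 4.43 sites per 1000 bases, while in CDS peaks it stood between 5.10 and 5.73. Above 600 bases the shares of 3′ UTR and CDS peaks, 86.9% and 88.2% (83.7 to 91.6), had overlapping intervals.

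**Figure D2:**
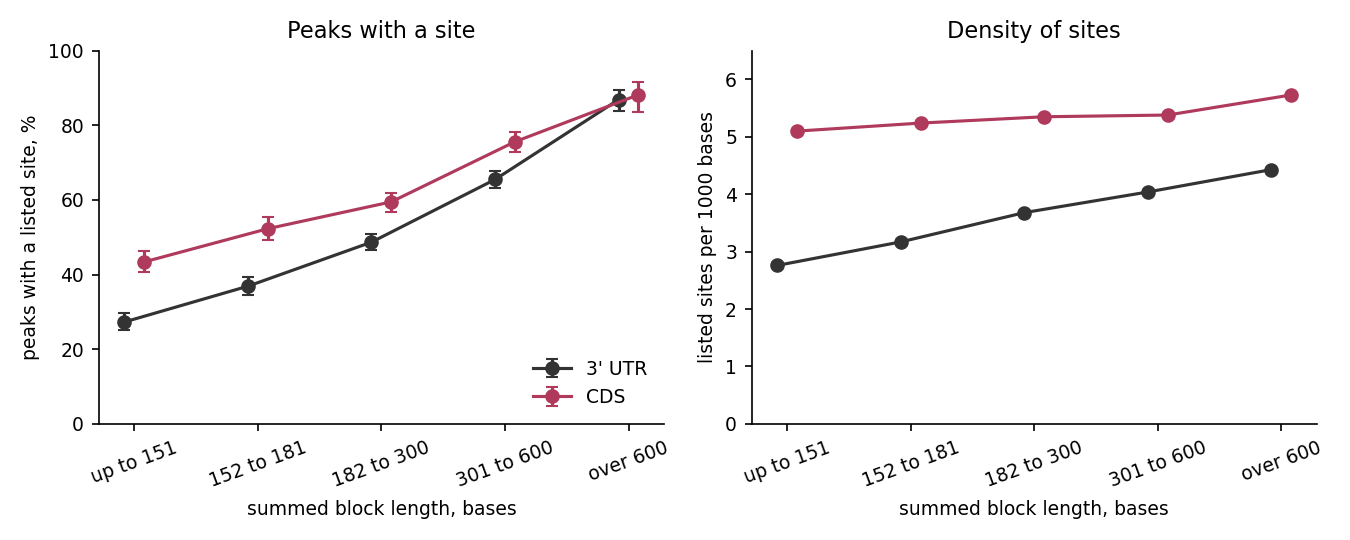
Share of peaks with at least 1 listed site in percent (left, bars are 95% Wilson intervals) and listed sites per 1000 bases (right) against the length class in bases, for 3′ UTR and CDS peaks. The 3′ UTR points lie below the CDS points in every class, with overlapping intervals over 600 bases in the left panel, and the density of sites climbs with length from 2.76 to 4.43 in 3′ UTR peaks.

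Sites were spread nearly evenly within a peak. In the 2986 peaks of 1 block with a site, 33.0% of 6298 sites lay in the 5′ stretch (31.8 to 34.2), 34.9% in the middle (33.7 to 36.1) and 32.1% in the 3′ stretch (30.9 to 33.3) when each peak was cut into 3 equal stretches. The most sites were listed for FSCN1, which encodes the actin bundler fascin, with 23 in 1846 bases. SLC7A5, the large neutral amino acid transporter LAT1, had 18 in 1582 bases. C19orf47 and the Wnt ligand WNT7B had 16 each, in 928 and 1614 bases, and LTBP4, a binding protein of latent TGF-β, had 14 in only 509 bases. All 5 peaks were found in both lists, but their folds were far apart. In the pooled list SLC7A5 was at 3300, WNT7B at 431, FSCN1 at 81.3, C19orf47 at 46.2 and LTBP4 at 11.5. Of the hosts, LTBP4 was at 2.87 FPKM in Input labelled SW480 and at 37.0 in the other one, and its fold was 34.4 in SW480 and 3.44 in DLD-1.

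Host genes mostly carried a single 3′ UTR peak. Of the 4924 hosts, 3263 had 1 peak (66.3%, 64.9 to 67.6), 1107 had 2, 382 had 3, 117 had 4, 31 had 5, 17 had 6, 5 had 7 and 2 had 8. The hosts with at least 2, 33.7% of all, nevertheless held 55.9% of the peaks. Neighbouring peaks of a host were separated by a median of 359 bases, and 14.7% of the 2475 gaps were 100 bases or less. Peaks on hosts with 1 peak had a median fold of 18.1, and those on hosts with 2, 3 or 4 had 14.5. The peak nearest the gene end was more often the strongest. It had the highest fold in 57.5% of 1107 hosts with 2 peaks (54.6 to 60.4), in 45.8% of 382 hosts with 3 (40.9 to 50.8) and in 48.7% of 117 hosts with 4 (39.8 to 57.7), whereas the peak nearest the stop codon did so in 42.5%, 29.6% and 15.4%.

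The hosts with the most peaks were PTPN14, a tyrosine phosphatase that restrains YAP, and FAM168B, with 8 each. PTPN14 had folds from 6.79 to 52.5, and 6 of its 8 peaks were found in the DLD-1 list only. FAM168B had folds from 3.22 to 45.7, and again 6 of 8 were found in the DLD-1 list only. CCND2, AMOTL1 and EIF1AX carried 7 each. For CCND2, Input labelled SW480 was listed at 0 FPKM and Input labelled DLD-1 at 16.3. Its 7 peaks had folds of 8.15 to 172, of which 3 were shared, 3 were found in the DLD-1 list only and 1 in the SW480 list only. EIF1AX, a factor of start codon recognition, had 3 shared peaks and folds of 9.06 to 74.3 with 1 site over all 7. AMOTL1, a scaffold of tight junctions, had 7 peaks with folds of 11.8 to 50.7, none of them shared, although its Inputs were listed at 0 (label SW480) and 0.0413 FPKM (label DLD-1).

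Hosts often lacked peaks elsewhere. Of the 4924 hosts, 60.4% (59.0 to 61.8) had no pooled peak of another position, 36.6% also had a CDS peak and 2.62% a 5′ UTR peak. A total of 726 peaks (9.81%) overlapped a pooled peak assigned to another gene on either strand, and 320 of them on the same strand, so that the assignment to a host is uncertain there.

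Fewer than 4 in 10 of the 3′ UTR peaks of the pooled list were found in both lines. A per-line peak that shared at least 1 base on the same strand was present in both lists for 2659 peaks (35.9%, 34.9 to 37.0), in the SW480 list only for 1830 (24.7%, 23.8 to 25.7), in the DLD-1 list only for 2489 (33.6%, 32.6 to 34.7) and in neither for 421 (5.69%, 5.18 to 6.24). The pooled list shares its reads with both, so presence is not an independent repeat. CDS peaks were shared less often, at 24.2% (23.0 to 25.5), and more of them were found in the DLD-1 list only, at 57.5% (56.1 to 58.8). Over all positions the DLD-1 list was the longer one, with 13964 peaks against 9536 in the SW480 list. Presence did not mean the same borders. The blocks were identical to the SW480 peak for 25.8% of the 3′ UTR peaks, to the DLD-1 peak for 25.3% and to both for 1.51%. Under the same rule the SW480 list held 5022 3′ UTR peaks on 3919 genes and the DLD-1 list 5763 on 3874, and 77.3% (76.0 to 78.6) and 67.9% (66.4 to 69.4) of these genes had a single one. Compared line to line, 54.9% (53.5 to 56.3) of these SW480 peaks were overlapped by a DLD-1 peak of any position. Of the DLD-1 peaks, 46.4% (45.1 to 47.7) were overlapped by a SW480 peak.

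Shared peaks were stronger and longer. The median fold was 36.2 for peaks in both lists, 13.6 for the SW480 list only, 11.8 for the DLD-1 list only and 8.15 for neither, and the median lengths were 388, 181, 181 and 151 bases. Of the 192 peaks with a fold over 200, 96.4% were in both lists, against 10.2% of the 570 peaks under 5. Peaks in neither list had an FDR under 0.05 in 56.3% of cases, against at least 94.2% in the other classes. A site was listed for 66.2% of the shared peaks (64.4 to 68.0), but at 180 or 181 bases the share was 35.6% in 132 shared peaks, 35.7% in 642 of the SW480 list only, 38.5% in 652 of the DLD-1 list only and 29.8% in 94 of neither list.

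**Figure D3:**
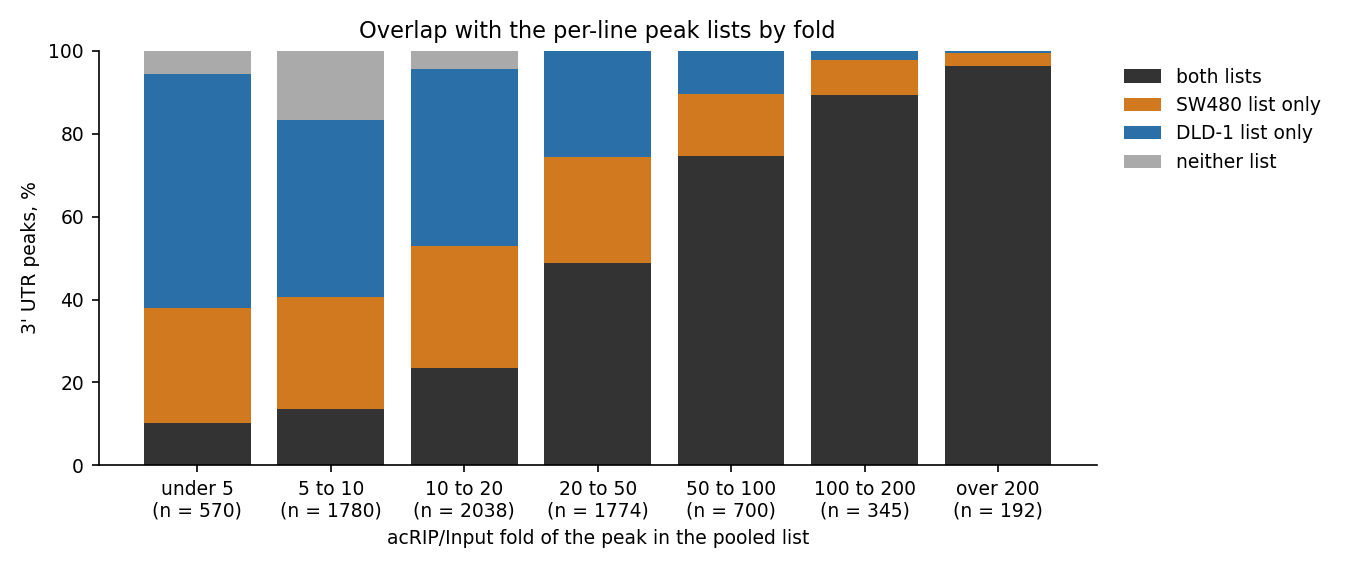
Share of 3′ UTR peaks in percent found in both per-line lists, in 1 of them or in neither, by class of the pooled acRIP/Input fold, with the number of peaks under each bar. The share in both lists goes from 10.2% under a fold of 5 to 96.4% over 200.

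Position along the transcript also differed between the classes. The host of 98.4% of the peaks matched a RefSeq gene by symbol, and 7249 peaks lay on the matched gene. From the 3′ edge of a peak to the RefSeq gene end there was a median of 779 bases (quartiles 145 and 2328), and 21.1% of the peaks ended within 100 bases of it (20.2 to 22.1). For shared peaks the median was 284 bases with 37.5% within 100 (35.6 to 39.3). It was 626 bases with 19.9% (18.1 to 21.8) for the SW480 list only and 1342 bases with 6.72% (5.79 to 7.78) for the DLD-1 list only. At 180 or 181 bases of length, 15% of SW480-only peaks (12.4 to 18) and 4.21% of DLD-1-only peaks (2.91 to 6.05) ended within 100 bases of the gene end. Shared peaks of this length were not nearest to it, with 11.5% within 100 bases (7.12 to 18.2) and a median of 844 bases, against 838 for the SW480 list only and 1496 for the DLD-1 list only. At a fold of 10 to 20, by contrast, shared peaks were nearest, with 25.6% of 468 within 100 bases (21.9 to 29.8). The shares there were 17% (14.2 to 20.2) for the SW480 list only and 7.73% (6.12 to 9.71) for the DLD-1 list only. Taken whole, the 3′ UTR peaks of the SW480 list lay at a median of 479 bases from the gene end and those of the DLD-1 list at 898. Each line is 1 acRIP library, so whether this belongs to the line or to the library cannot be told apart. Peaks with a fold over 100 were nearest, at a median of 82 bases. Distances also fell on the grid of 30 bases, and RefSeq may place an end elsewhere than the annotation used by the authors.

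**Figure D4:**
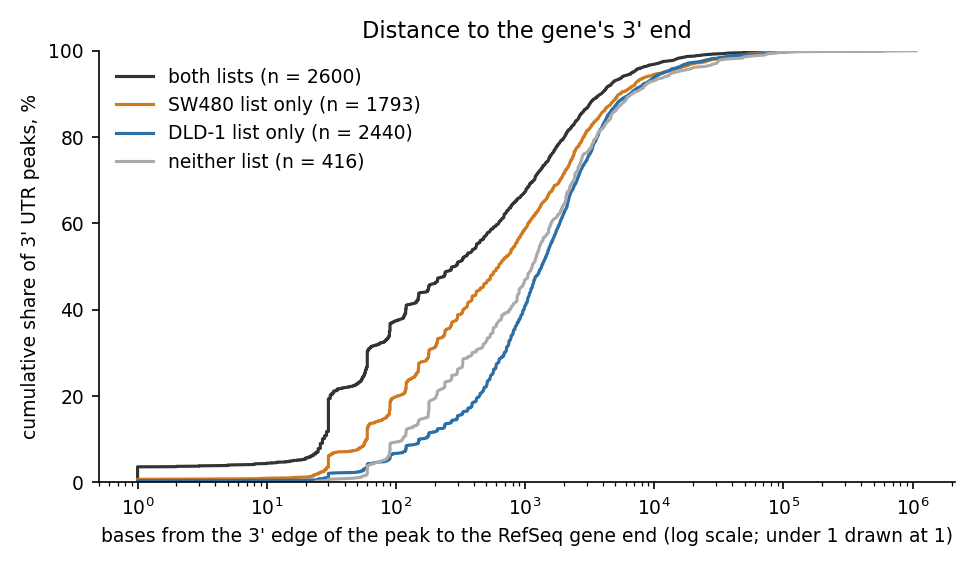
Cumulative share of 3′ UTR peaks in percent against the distance in bases from the peak's 3′ edge to the RefSeq gene end (log axis), by presence in the per-line lists. At 100 bases the curve for both lists has reached 37.5% and that for the DLD-1 list only 6.72%.

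In the shared peaks the 2 lines gave related but uneven folds. The median fold of the overlapping per-line peak was 34.4 in SW480 and 25.6 in DLD-1, the fold was higher in SW480 for 58.4% of 2659 peaks (56.6 to 60.3), and Spearman's rank correlation across peaks was 0.33, where the peaks share the same libraries and are not independent. The log2 of the SW480 over the DLD-1 fold had a median of 0.41 and quartiles of -0.80 and 1.70, so that in many peaks the lines differed more than 2-fold. This ratio moved with the Inputs of the hosts. Where the host was at least 4-fold higher in the Input labelled DLD-1 (acRIP table, FPKM + 1), the median log2 ratio of the folds was 2.72, and of the peaks found in only 1 list 57.6% (45.6 to 68.8) were in that of SW480. Where the host was at least 4-fold higher in the Input labelled SW480, the median was -0.70 and the share 37.0% (24.5 to 51.4). Within 2-fold, which held 6296 of the peaks, the values were 0.41 and 41.7% (40.1 to 43.3). The part of the Input labels in these folds was not tested.

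Among the peaks whose overlapping peaks in both lines were themselves in the 3′ UTR of the same host, the strongest 10 had folds of at least 442 in both lines. Ordered by the lower of both folds, the first was ADIRF (adipogenesis regulatory factor) with 1750 in SW480 and 816 in DLD-1. It overlaps peaks of ADIRF-AS1 and AL136982.7 on the opposite strand. CALB2, the calcium-binding protein calretinin, had 2660 and 705. The transcription factor gene GATA3 had 1150 and 702, and ARHGDIB had 1400 and 606. SLC7A5 had 3030 and 576, FNDC10 1110 and 548, and the lysosomal protease gene CTSB 13000 and 507. SMS, the spermine synthase, was the only 1 of the 10 with the higher fold in DLD-1, at 505 and 582. IGFBP3, a carrier of insulin-like growth factors, had 3800 and 488, and the adhesion protein gene NECTIN1 995 and 442. These 10 peaks were 470 to 1582 bases long, in up to 11 blocks (SMS), and held 2 to 18 sites. Other shared peaks also lay above the lowest of the 10 but overlapped, in at least 1 line, a peak of another annotation. Among them, and chosen after their values were seen, S100A2 had 6580 and 2010, and the interferon-induced tetherin gene BST2 had 4440 and 667.

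**Figure D5:**
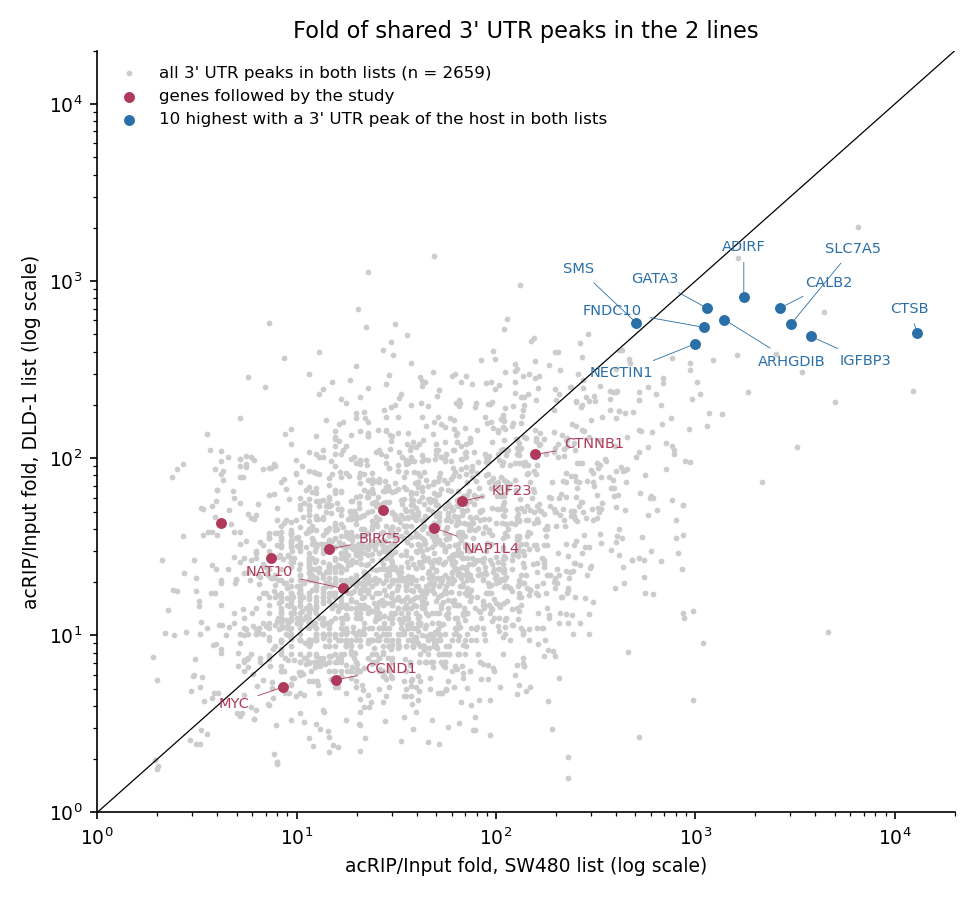
Fold in the DLD-1 list against fold in the SW480 list (both log axes, black line at equal folds) for the 2659 3′ UTR peaks found in both lists, with the peaks of genes followed by the study in red and in blue the 10 with the highest lower fold among those overlapped in both lists by a 3′ UTR peak of the same host. Of the 10 blue peaks, 9 lie below the line and SMS lies above it, and KIF23 stands at 67.7 and 57.4.

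Their hosts differed widely in Input. SLC7A5 was at 113 and 153 FPKM in the Inputs labelled SW480 and DLD-1 and CTSB at 87.1 and 263. CALB2 was listed at 0 and 17.9, FNDC10 at 0 and 4.09, and ARHGDIB at 1.03 and 0. ADIRF was listed at 0 in both Inputs of the RIP table but at 2 and 5 FPKM in the acRIP table. GATA3 was listed at 0 in both Inputs of the RIP table and at 0 and 0.0284 in the acRIP table. With the NAT10 antibody it was at 0.263 FPKM in SW480 and 0.645 in DLD-1, by label.

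GATA3 was not alone. A total of 289 peaks (3.91%, 3.49 to 4.37) lay on 216 hosts that were under 0.5 FPKM in all 4 Input columns of both tables. Their median fold was 19.0, against 15.6 for the other 3′ UTR peaks. The fold has Input as its denominator and these hosts were taken for their low Input, so the medians do not compare the strength of the peaks. Of the 289, 96 were found in both lists with a median fold of 47.1. By presence they made up 3.61% of the shared peaks, 5.14% of the SW480-only, 3.33% of the DLD-1-only and 3.8% of those in neither list. After GATA3 (1810 pooled) the highest were BASP1, a membrane-bound signalling protein (1070), LY6K (542) and the muscle calcium channel gene RYR1 (395), which were chosen after their values were seen. BASP1 was listed at 0 in all 4 Inputs, and its per-line folds were 1050 (SW480) and 230 (DLD-1). Some of these hosts have names that join neighbouring genes (RAB4B-EGLN2, ANKHD1-EIF4EBP3) or share their peak, as SNRPN and SNURF do. TOMM6 and EEF1G, parts of the mitochondrial import pore and of the translation elongation complex, were at 0 in all 6 columns. Their peaks had pooled folds of 318 and 30.8. Whether a listed 0 stands for absent RNA or for a failed estimate was not tested.

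Peaks found in 1 line only had lower folds than the shared ones, but some were high. In the SW480 list only, the highest pooled folds were those of LAMTOR4, a subunit of the Ragulator complex of lysosomes (429), the CTP synthase gene CTPS1 (292), FBXO45 (255), PURB (241) and the oestrogen receptor gene GPER1 (213). In the SW480 list itself these stood at 810, 330, 290, 273 and 242. In the DLD-1 list only, the highest were CDC123 (315), the actin capping subunit gene CAPZA2 (149), the copper transporter gene SLC31A1 (132), API5 (120) and QKI, an RNA-binding splicing regulator (111), at 273, 120, 115, 104 and 96.8 in that list. All 10 hosts were above 1 FPKM in both Inputs of the RIP table. CDC123, for example, was at 63.3 and 64.9. In neither list, STYXL1 had 73.4, CTSA 24.5 and ANO6 19.0, and the last was listed at 0 FPKM in the Input labelled SW480 and at 15.2 FPKM in the other one.

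The share of expressed genes that carried a 3′ UTR peak went up with Input and then down. Of the 10350 protein-coding genes expressed in both Inputs, 4349 were hosts (42.0%, 41.1 to 43.0), and 27.3% had a CDS peak. By the geometric mean of both Inputs the share was 17.2% (14.2 to 20.7) at 1 to 2 FPKM, 40% (38.1 to 41.9) at 5 to 10, 55.4% (53.2 to 57.7) at 20 to 50 and 41.7% (36.4 to 47.2) at 100 or more. The median fold stood between 14.5 and 18.1 in all 7 classes, whereas the share of peaks found in both lists was 29.9% at 1 to 2 FPKM, lowest at 2 to 5 with 21.7%, and 77.2% at 100 or more.

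Gene groups differed in how many of their expressed members were hosts, set against 42.0% of all expressed genes for 3′ UTR peaks and 27.3% for CDS peaks. A list of RAB, ARF and SAR1 genes of membrane traffic, in which RAB11FIP1 (a host) encodes a RAB11 effector and the others small GTPases, stood highest, with 23 hosts of 31 (74.2%, 56.8 to 86.3) at a median Input of 13.3 FPKM. All expressed genes of 10 to 20 FPKM had 48.2%. A CDS peak was found for 22.6% of the list. ARF1, which recruits vesicle coats, had a peak of fold 168 with 6 sites, RAB14 one of 150 among 4, and RAB2A one of 80.6. Genes of cytokinesis and mitosis had 23 hosts of 35 (65.7%, 49.2 to 79.2) at a median Input of 23 FPKM, and 71.4% had a CDS peak. All expressed genes of 20 to 50 FPKM had 55.4%, which lies within that interval. Beside KIF23, the microtubule depolymerase KIF2C had 264, the contractile ring scaffold ANLN 251 and the mitotic kinase CDK1 181. Early-response and short-lived mRNAs were hosts in 24 of 44 cases (54.5%, 40.1 to 68.3), whereas only 6.82% had a CDS peak. Among them were the chemokine CXCL1 (493), the mRNA decay factor ZFP36L2 (192) and ID1 (182).

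Genes that act on RNA lay near the share of genes at their Input. HNRNP, SRSF and related splicing genes (among them PCBP1, PTBP3 and TRA2A) were hosts in 23 of 38 cases (60.5%, 44.7 to 74.4) at a median Input of 40.8 FPKM, with a median fold of 28.1, led by HNRNPM (247), HNRNPK (183) and SRSF2 (159). The list of writers, erasers and readers of RNA modifications, which also holds the DNA methyltransferase gene DNMT1 (a host), had 17 hosts of 30 (56.7%, 39.2 to 72.6), led by TRMT61A, the catalytic subunit of a tRNA methyltransferase (178), and the pseudouridine synthase gene DKC1 (134). Genes of 3′ end processing and the poly(A) tail were hosts in 12 of 22 (54.5%, 34.7 to 73.1). The nuclear poly(A) binding protein gene PABPN1 had 632, the cleavage factor gene CPSF4 111 and PABPC1 88.9. Translation factors were hosts in 22 of 41 (53.7%, 38.7 to 67.9), led by EIF6 (341), EIF4H (286) and EIF2S3 (127). Genes of microRNA function and deadenylation were hosts in 21 of 41 (51.2%, 36.5 to 65.7), led by the stabilising RNA-binding protein gene ELAVL1 (58.0), the deadenylase scaffold gene CNOT1 (41.1) and TOB2 (39.8). The median Inputs of the early-response, 3′ end, microRNA, RNA modification and translation lists were 36.1, 19.2, 14, 18.6 and 45 FPKM. For these 5 lists and the HNRNP list, the share of hosts among all expressed genes of the same Input class (48.2% at 10 to 20 FPKM, 55.4% at 20 to 50) lay within the interval of the list.

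Wnt pathway genes, ribosomal protein genes and ZNF genes had lower shares than all expressed genes. Wnt genes were hosts in 13 of 40 cases (32.5%, 20.1 to 48.0) at a median Input of 14.8 FPKM. This interval held 42.0% and ended just under the 48.2% of genes of 10 to 20 FPKM. CTNNB1 was followed by TCF7L1 (97.8, SW480 list only) and PYGO2 (49.8). TCF7L1 was at 1.29 FPKM in Input labelled SW480 and at 11.5 in the other one. Ribosomal protein genes were hosts in 13 of 80 (16.2%, 9.75 to 25.8) at a median Input of 161 FPKM. All expressed genes of 100 FPKM or more had 41.7%, but many ribosomal protein genes are in that class, so it is not a separate reference. A CDS peak was found for 33.8% of the list. RPL7 had the highest fold, 188, followed by RPL23A (97.8) and RPL7L1 (29), a ribosomal protein-like gene that entered the list by its symbol. ZNF genes were hosts in 69 of 284 (24.3%, 19.7 to 29.6) at a median Input of 4.22 FPKM, and the 29.2% of all expressed genes of 2 to 5 FPKM lay within that interval. They were led by ZNF770 (212), ZNF664 (141) and ZNF395 (128). Length of the 3′ UTR was not measured here, and its part in these shares was not tested.

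NAT10 RIP, which played no part in the choice of peaks, gave slightly higher values for hosts than for other genes. Input, however, is the denominator of the RIP ratio and of the peak folds alike. The median Input of expressed hosts was also higher than that of expressed coding genes that are no host. It was 12.9 against 8.11 FPKM (label SW480) and 13.1 against 8.5 (label DLD-1). The part of Input in the values below was not tested. In log2((RIP FPKM + 1)/(Input FPKM + 1)), the 4349 expressed hosts had a median of 0.26 with the SW480 labels and 0.15 with the DLD-1 labels, against 0.18 and 0.07 for all expressed protein-coding genes and 0.12 and 0.01 for those without a 3′ UTR peak. With the other label's Input as denominator the hosts were at 0.19 and 0.17 and all genes at 0.11 and 0.09. At least 2-fold above Input were 18.9% of the hosts (820) against 17.4% of all expressed genes with the SW480 labels, and 17.6% (764) against 16.7% with the DLD-1 labels, which is near the share of all genes. With the other label's Input these shares were 11.8% against 10.1% and 11.2% against 10.0%. At least 2-fold below Input were 7.34% of the hosts against 9.17% of all expressed genes with the SW480 labels, and 10.3% against 12.8% with the DLD-1 labels. With the other label's Input 2.12% of the hosts were this low against 3.93%, and 3.08% against 4.51%. Among expressed genes without a 3′ UTR peak, the shares below Input were 10.5% and 14.6% with the Input of the same label and 5.25% and 5.55% with the other one, and those above Input were 16.3%, 16%, 8.93% and 9.12% in the same order. Hosts with 2 or more 3′ UTR peaks had medians of 0.34 and 0.26, and genes with a CDS peak but none in the 3′ UTR had 0.24 and 0.13.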

How the data were processed

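Sequencing and processing were done by the authors' provider. The submitters' processing notes name cutadapt 2.5, HISAT2 2.1.0 and the builds GRCh38, hg38 and GRCm38 (mouse) without roles. Positions were read as GRCh38. The peak caller and strand setting are not given in the sources used here. The authors deposited FPKM values of RIP and Input, a second table read as FPKM of the Inputs although its unit is unnamed, and peak lists with a p-value, the fold (ratio of acRIP to Input), SS_Number and a score (base-10 logarithm of p-value and FDR). FDR cells holding a spreadsheet error were taken as passing. The deposited RIP/Input ratio columns hold the authors' comparisons and were not used. List starts count from 0 and were moved by 1 base.

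Peaks were compared block by block in Python 3.11.15 (pandas 2.3.3, scipy 1.17.1), checked on simulated peaks, with a pseudocount of 1 for FPKM ratios. Named genes were the 14 followed by the study, the 10 peaks with the highest lower fold among those overlapped in both lists by a 3′ UTR peak of the same host, the 5 hosts with most peaks (ties by summed length), the 5 longest peaks, the 5 with most sites (ties by density), the 5, 5 and 3 highest folds in the SW480 list only, the DLD-1 list only and neither, and the 3 highest hosts of each list. These rules, the members and the gene lists were chosen with earlier results of these data known. RefSeq positions were matched by symbol. Peaks on chromosome 8 are given without sequence, and a shared peak outside the naming rules is not reported here. No test was run, as there was 1 library per group. The alternatives tried were the FDR and fold limits, the overlap rule, length limits, the single-line lists, the pseudocount, the Input filters and the Input label.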

Additional observations from a re-analysis of the deposited data

How the results depend on the processing

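Of 41 alternatives of 9 results, 17 stayed within the interval of the main value (within 1.5 times for the number of peaks). Limited to peaks with an FDR under 0.05, the share in the SW480 list was 62.4%, in the DLD-1 list 72.1%, the share with a site 49.7% and the median length 239 bases. Of fold 13.6 (the pooled list's median) or higher, 4228 peaks were left, with shares of 74.5%, 77.2% and 55.0%. With at least 50% of each peak shared, 53.5% were in the SW480 list and 63.0% in the DLD-1 list, and 68.2% were in the latter when its peak also had to be in a 3′ UTR. Peaks of 150 to 300 bases had a site in 40% of cases, and the median genomic span was 238 bases. Hosts with a single peak were 77.3% in the SW480 list and 67.9% in the DLD-1 list. The RIP/Input median of the SW480 label was 0.19 over the Input of the other label. Hosts were 52.4% of genes with an Input of at least 10 FPKM, 43.5% by the Inputs of the acRIP table and 23.0% with a 3′ UTR peak in both per-line lists. Chosen after seeing the data, leaving out peaks that overlap a peak of another gene gave 59.3% in the SW480 list, 47.0% with a site and 39.4% of expressed genes as hosts, and subtracting the median of all expressed genes gave RIP/Input medians of 0.08 and 0.09. Leaving out peaks on hosts under 0.5 FPKM left 7110 peaks and, among the shares and the median length for which it was run, moved none out of its interval; it was not run for the RIP/Input medians or the share of expressed genes. A search of the pattern in the peaks' own sequence was not run. No paired analysis was possible because each group held 1 library. Unknown acRIP depth limits what absence from a per-line list shows.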
